A study of Mus musculus with 6 samples.

Results

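Xenobiotic-metabolizing enzymes of 6 gene families were examined in single mouse oocytes. The members were all genes of the deposited table whose symbol begins with a name of the cytochrome P450 families Cyp1 to Cyp4, the carboxylesterases (Ces), the aldehyde dehydrogenases (Aldh), the glutathione S-transferases of the alpha, kappa, mu, omega, pi and theta classes (Gst), the UDP-glucuronosyltransferases (Ugt1 and Ugt2) or the cytosolic sulfotransferases (Sult). They numbered 185 of 25239 genes, with 85 in Cyp, 20 in Ces, 20 in Aldh, 21 in Gst, 18 in Ugt and 21 in Sult. The choice used gene names and no measured value, so it also took in 6 genes that RefSeq lists as transcribed pseudogenes (Cyp2c53-ps, Cyp2d13, Cyp2d37-ps, Cyp4b1-ps2, Cyp4f41-ps and Ces2d-ps) and the noncoding antisense gene Cyp4x1os. Of these 7, Cyp4b1-ps2 had 2 counts and Cyp2c53-ps had 1, and they stay in all counts of members below. Genes whose symbols are built otherwise, such as mitochondrial Aldh2, fall outside it.

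The 6 libraries came from oocytes at the germinal vesicle (GV) stage, before meiosis resumes, of female CD-1 mice (an outbred stock) aged 4 to 6 weeks. Cumulus-oocyte complexes were microinjected with water in the control group (3 oocytes) or with a mixture of phthalate metabolites in the other group (3 oocytes), so both groups carried an injection. Both were then cultured in maturation medium with serum, follicle-stimulating hormone and pyruvate, and the oocytes were taken while still at the GV stage. The composition and dose of the mixture are not given in the labels. RNA was read by Smart-seq3, a full-length single-cell method primed with oligo(dT). The comparison asks how the mixture affects the oocyte transcriptome. No animal or culture is named, and 1 label speaks of a single oocyte for a group. Each group was therefore treated as 1 sample, no test was made, and the 3 values of a group show only the spread between libraries.

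Enzymes of this kind act in sequence on foreign and endogenous compounds. Cytochromes P450 insert oxygen, carboxylesterases split esters, and aldehyde dehydrogenases oxidize reactive aldehydes to acids. Glutathione S-transferases, glucuronosyltransferases and sulfotransferases then attach polar groups that ease export. Phthalate diesters are split to monoesters by esterases and lipases, and monoesters are excreted in large part as glucuronides. The families are best known from liver, where the receptors AHR, CAR, PXR and PPARA induce many of the genes. Several members also handle endogenous substrates such as retinal, amino acid semialdehydes and products of lipid peroxidation.

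Most of the members left no trace in the oocyte libraries. Of the 185 members, 60 had a count in at least 1 library and 125 had 0 counts in all 6, while 50.7% of all genes in the table had a count. The share of members with a count was 32.4%. A minimum count filter (edgeR's filterByExpr) kept 7 members, 3.78% of them, and 18.4% of all genes. The 7 were 4 glutathione S-transferases (Gsta4, Gstt2, Gstp1 and Gstm5) and 3 aldehyde dehydrogenases (Aldh9a1, Aldh1a2 and Aldh7a1). Together they held 71.1% of the 2120 counts assigned to members, and Gsta4 alone held 21.2%.

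The libraries held 252267 to 300917 gene counts each, and from 30 to 37 members were counted in a library. Members took 0.129% of the counts in the water group (95% exact binomial interval 0.122 to 0.137) and 0.123% in the phthalate group (0.116 to 0.131). Summed over members, the libraries had 1276, 1316 and 1290 CPM (counts per 1000000 counts of a library) with water and 1149.6, 1325 and 1211 CPM with phthalate, and these values overlapped. At this depth a member with 0 counts could still have made up to 3.51 CPM of the water group and 3.65 CPM of the phthalate group (3 counts of the group total). The limits would be higher if the reads of a pair were tallied separately, a point taken up with the ratios. These limits and all intervals below cover counting error only. All 10 oocyte markers, such as Gdf9 and Zp3, had counts in both groups. Figla, with 7 to 18 counts in the other libraries, was at 0 in phthalate oocyte 1. The 4 hepatocyte markers (Alb, Apoa1, Ttr and Serpina1a) were at 0 throughout.

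Detection differed widely between families. Glutathione S-transferases had 14 of 21 members with a count and aldehyde dehydrogenases 13 of 20. The Cyp group had 25 of 85 (2 of the 25 are pseudogenes), Sult 5 of 21, Ugt 2 of 18 and Ces 1 of 20. In share of member counts, Gst took 44.7%, Aldh 40.2%, Cyp 9.29%, Sult 5.14%, Ugt 0.377% and Ces 0.283%. Whole subfamilies were at 0, among them the 3 Cyp1, 9 Cyp3a, 10 Cyp2d, 8 Ugt1a, 6 Sult1 and 8 Ces2 genes.

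**Figure D1:**
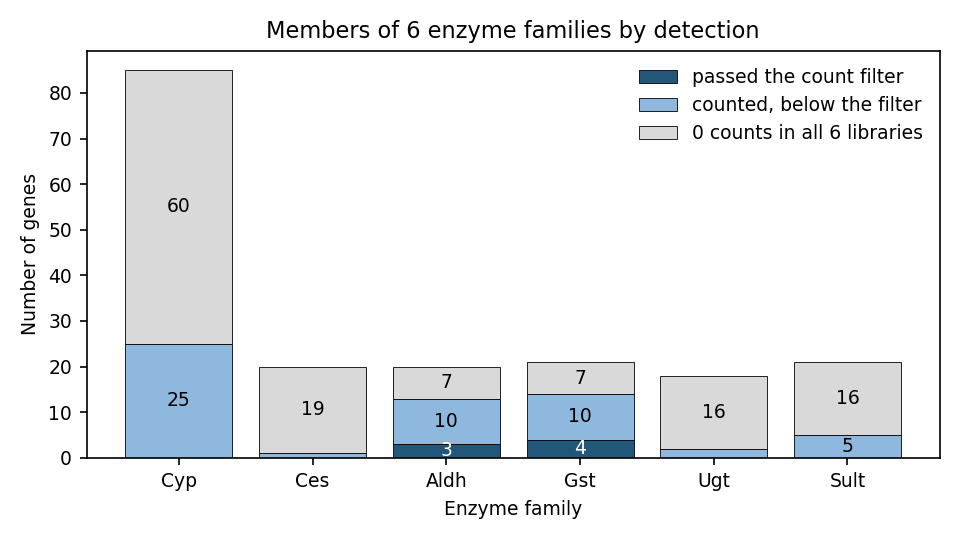
Number of members in each enzyme family (x axis) split by detection (y axis, genes): passed the count filter, counted but below it, or 0 counts in all 6 libraries. Only Aldh (3) and Gst (4) had members past the filter, and 60 of 85 Cyp genes were at 0.

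Sequence shared with other genes limits what a 0 means for some members. In 13 members more than 50% of the 150-base windows of the longest GENCODE M21 transcript also occur in a transcript of another gene, so a read there has no single origin. Of these 13, 12 had 0 counts, including the 8 Ugt1a genes, which share their last exons, and the near-copies Cyp3a41a and Cyp3a41b. For most undetected members this did not apply. Of the 124 members with 0 counts and a transcript in that annotation, 77 shared no window with another gene and 104 shared at most 10% of windows. How the submitters counted reads with several origins is not given in the sources used here.

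The members differed in the CpG content of their promoters according to detection. Stretches of 3 promoters of counted members and 4 of members with 0 counts are shown to make this visible. Each is the 150 bases before a start site in the RefSeq table of GRCm38.p6, 5′ to 3′ on the strand of the gene, with each CG in capitals. For genes with several listed starts the one richest in CG was taken.
Gstp1: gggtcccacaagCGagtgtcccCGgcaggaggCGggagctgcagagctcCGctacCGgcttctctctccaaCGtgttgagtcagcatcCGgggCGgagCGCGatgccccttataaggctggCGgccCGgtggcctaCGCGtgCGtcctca
Gstp3: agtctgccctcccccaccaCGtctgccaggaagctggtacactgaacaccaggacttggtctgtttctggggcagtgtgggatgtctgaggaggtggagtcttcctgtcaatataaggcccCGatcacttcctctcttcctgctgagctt
Aldh1a2: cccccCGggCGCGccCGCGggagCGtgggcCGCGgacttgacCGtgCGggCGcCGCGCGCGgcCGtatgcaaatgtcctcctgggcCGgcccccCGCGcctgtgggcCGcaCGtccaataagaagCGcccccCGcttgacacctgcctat
Aldh1a1: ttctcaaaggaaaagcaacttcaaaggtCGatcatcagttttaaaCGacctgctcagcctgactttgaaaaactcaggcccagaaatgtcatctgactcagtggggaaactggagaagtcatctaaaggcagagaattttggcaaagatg
Gstm5: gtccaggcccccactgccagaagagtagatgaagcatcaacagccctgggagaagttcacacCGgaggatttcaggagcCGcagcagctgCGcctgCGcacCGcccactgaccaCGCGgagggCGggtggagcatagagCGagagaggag
Gstm1: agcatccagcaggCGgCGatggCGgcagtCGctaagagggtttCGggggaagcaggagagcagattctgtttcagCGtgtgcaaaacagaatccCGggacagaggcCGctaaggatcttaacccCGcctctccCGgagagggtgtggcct
Cyp1a1: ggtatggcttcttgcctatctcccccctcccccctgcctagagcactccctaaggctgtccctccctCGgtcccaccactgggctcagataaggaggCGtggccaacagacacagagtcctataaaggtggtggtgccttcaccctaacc

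The stretch of Gstp1 (chr19:4037913-4038062, minus strand) holds 15 CG and that of its undetected neighbour Gstp3 (chr19:4059448-4059597, minus strand) holds 2. Aldh1a2 (chr9:71215639-71215788, plus strand) has 23 and its undetected relative Aldh1a1 (chr19:20492433-20492582, plus strand) has 2. Gstm5 (chr3:107895704-107895853, plus strand) and undetected Gstm1 (chr3:108017974-108018123, minus strand) do not follow that contrast, with 9 and 10. Cyp1a1 (chr9:57697463-57697612, plus strand), the classic target of AHR, has 2 and had 0 counts.

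Over the full RefSeq window of 250 bases before to 50 after the start, 149 of 185 members had a promoter. Here a gene with several starts was given the median of their CG numbers, for Gstm1 11 against 14 at the printed start. The median number of CG was 19 in the 4 members past the filter that had a promoter (Aldh1a2 50, Gstp1 20, Gstm5 18 and Aldh9a1 9). It was 5 in 40 counted members below the filter and 2 in 105 members with 0 counts. Over all genes of the table the corresponding medians were 22, 18 and 5, so the order with detection was also that of genes at large. At least 10 CG were found in 5 of the 105 undetected members (Cyp1b1, Cyp4v3, Cyp4x1os, Gstm1 and Gstm4), or 4.76%, beside 31.0% of all genes with 0 counts. Below the filter the shares were 32.5% of members and 73.0% of all genes, and past it 3 of 4 members and 87.5% of all genes.

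Motifs of 2 xenobiotic-responsive factors were searched on both strands of the same windows. The AHR core GCGTG, which itself contains a CG, was found in 4 of 4 members past the filter, 11 of 40 below it and 16 of 105 with 0 counts. It occurs in 35.2% of all promoters. The antioxidant response core TGACNNNGC, bound by NRF2, was found in 3 of 4, 2 of 40 and 6 of 105, against 14.0% of all promoters. These are matches of letters and say nothing of binding. All promoters were not split by detection here, so members of a class have no comparison with genes of the same class. Nor was CG content, which rose with detection over all genes, taken into account.

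**Figure D2:**
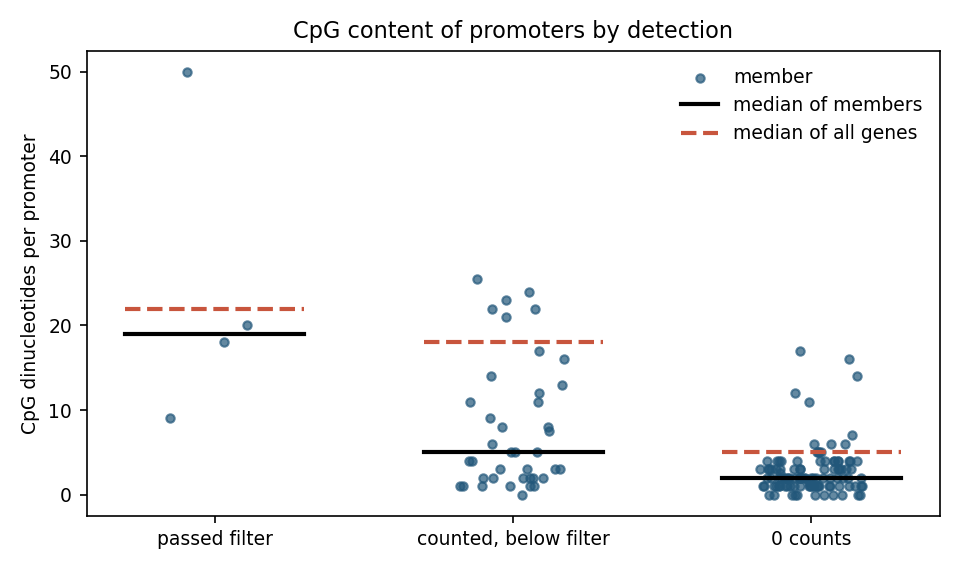
CG dinucleotides in the promoter window of each member (points, y axis) by detection (x axis), with the median of members (black) and of all genes in the same class (dashed red). The medians of members were 19, 5 and 2, and those of all genes 22, 18 and 5.

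Ratios between the groups were computed as the log2 of summed phthalate over summed water counts, with library totals scaled by TMM (a trimmed mean over genes). Each has an exact 95% interval from its counts. Many of the low counts are even, as if the 2 reads of a pair were tallied separately, but this was not tested. In that case these intervals are too narrow. The interval on counts halved to read pairs is therefore added where it bears on a value. None of the 7 members past the filter was past 2-fold, against 2.78% of the 4644 genes that passed (1.14% higher and 1.64% lower with phthalate). With any 1 oocyte left out and the filter applied anew, 7 to 9 members and 5018 to 5180 genes passed, so the genes compared also differ. Of these, 0 to 2 members (Gstt2, Gstm5 or Aldh18a1, the last not among the 7) and 5.09% to 6.39% of genes were past 2-fold. Of the 7, 3 had a ratio above 0 and 4 below. Their median was -0.11, beside 0.0089 over all genes that passed. The members' median was above 0 without water oocyte 1 (0.00074), without phthalate oocyte 2 (0.042), on spike-in scaling (0.0076) and without the filter (0.045), so its sign is not settled. A member that passed only through its higher group had to differ, so these 7 do not stand for the families.

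By library total, no family total separated the groups. The Aldh total was 531, 515 and 592 CPM with water and 424, 515 and 462 CPM with phthalate, so the highest phthalate and the lowest water library nearly coincided. After the TMM scaling used for the ratios, the Aldh groups did not overlap, by a narrow margin. Among single genes past the filter, 10.1% showed no overlap. The log2 ratio of the Aldh total was -0.20 (-0.40 to -0.0019, and -0.48 to 0.082 on read pairs). The Gst total was 534, 575 and 525 CPM against 579, 641 and 535 CPM, a ratio of 0.12 (-0.066 to 0.31). The Cyp total was 159.6, 109.7 and 109 CPM against 87.2, 119 and 120.04 CPM, a ratio of -0.18 (-0.60 to 0.24), which became 0.0055 without water oocyte 1 and -0.030 without phthalate oocyte 1. The Sult total had a ratio of -0.060 (-0.63 to 0.51), which became 0.70 without water oocyte 2 and 0.055 on spike-in scaling. The Ugt total rested on 6 and 2 counts and the Ces total on 4 and 2, too few to compare at this depth.

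**Figure D3:**
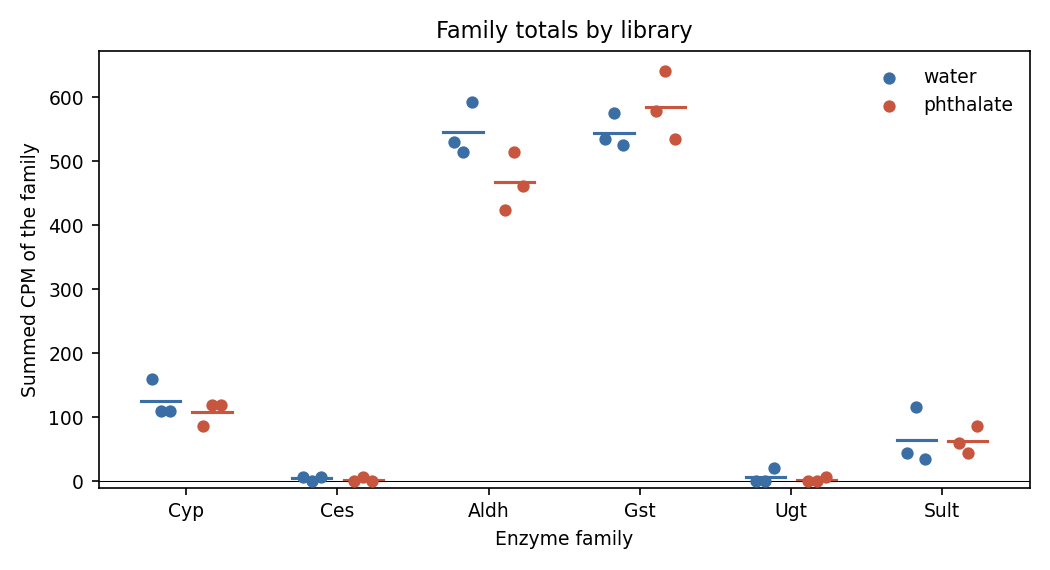
Summed CPM of each family (y axis) in each library, water in blue and phthalate in red, with a bar at the mean of the 3 libraries. Gst and Aldh lie between 424 and 641 CPM and the points of the groups overlap in each family, for Aldh by a margin too small to see (515 CPM in both). These values are by library total, and after TMM scaling the Aldh groups do not overlap.

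Among enzymes of oxidation, the cytochromes P450 were near the limit of detection. The member with the most counts was Cyp4x1 (chr4:115106323-115134079), an orphan P450. It had 4, 7 and 5 counts with water and 3, 1 and 9 with phthalate, and its ratio of -0.23 (-1.40 to 0.92) does not settle a direction. An antisense gene, Cyp4x1os, overlaps it and had 0 counts. The other Cyp genes with at least 20 counts in all were Cyp4f39 (28), Cyp2j12 (25) and Cyp2b23 (21). The remaining 21 counted Cyp genes had 1 to 18 counts.

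Textbook targets of xenobiotic receptors were looked up after their values were known. Cyp1a1, Cyp1a2 and Cyp1b1 (AHR), Cyp2b10 (CAR) and Cyp3a11 (PXR) had 0 counts in all 6 libraries. Of the PPARA targets, Cyp4a10 had 2 counts, both in water oocyte 2. Cyp4a14, a fatty acid omega-hydroxylase, had 3, 3 and 10 counts with water and 0, 0 and 2 with phthalate. All water libraries lay above all phthalate libraries, but 10 of its 18 counts came from 1 library. The ratio of Cyp4a14 was -2.93 (-6.09 to -0.84, and -8.40 to -0.029 on read pairs), and 18 counts are below the filter. Among the 3755 genes below the filter with at least 12 counts, 10.6% showed no overlap in either direction and 26.5% were past 2-fold. The gene Gm52676 overlaps Cyp4a14.

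Among carboxylesterases, Ces1d (chr8:93166072-93197804), a lipid hydrolase of liver and fat, was the one gene with a count. It had 2, 0 and 2 counts with water and 0, 2 and 0 with phthalate. The 19 other Ces genes, Ces2d-ps among them, were at 0.

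Aldehyde dehydrogenases supplied 3 of the 7 members past the filter. Aldh2, which is not a member, had a mean count of 48.5, above the 45 of Aldh9a1. Its 169 counts with water and 122 with phthalate gave a ratio of -0.40 (-0.75 to -0.054, and -0.89 to 0.10 on read pairs), and the groups overlapped. Aldh9a1 (chr1:167349963-167368530) oxidizes aminoaldehydes in the making of carnitine and GABA. It had 189, 183 and 152 CPM with water and 159, 146 and 138 CPM with phthalate. The groups overlapped at their edges, and the ratio was -0.23 (-0.59 to 0.13). Aldh1a2 (chr9:71215789-71296243) makes retinoic acid from retinal. Its values were 145, 66.5 and 173 CPM with water and 87.2, 122 and 175 CPM with phthalate, a spread of more than 100 CPM inside the water group. The ratio was 0.045 (-0.36 to 0.45) and ranged from -0.28 to 0.34 with 1 oocyte left out, so no difference was detectable at this depth.

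Aldh7a1 (chr18:56524722-56572991), which oxidizes the semialdehyde of lysine breakdown, was the member past the filter with the lowest ratio. It had 118.7, 119.6 and 176 CPM with water and 67.4, 105 and 76.4 CPM with phthalate. All 3 phthalate libraries lay below all 3 water libraries, a pattern without overlap found in 10.1% of the 4644 genes (5.15% higher and 5% lower with phthalate). The ratio was -0.70 (-1.15 to -0.26, and -1.38 to -0.090 on read pairs). It was -0.48 without water oocyte 3 and -0.89 without phthalate oocyte 2. For genes within 0.5 log2 units of its count the 5th and 95th percentiles of the ratio were -0.63 and 0.60. Aldh7a1 overlaps Phax at its end, and the use of strand is not given, so reads of both could mix there. Phax had 48 and 63 counts in the groups, a ratio of 0.46.

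The other 10 counted aldehyde dehydrogenases had 2 to 46 counts, and those described here were chosen after their values were seen. Aldh4a1, of proline breakdown, had 22 and 24 counts in the groups, and 40.2% of its windows also occur in Gm21969. Aldh18a1, of proline synthesis, had 2, 6 and 6 counts with water and 10, 14 and 6 with phthalate, a ratio of 1.17 (0.21 to 2.20, and -0.21 to 2.71 on read pairs). Aldh3a2, which oxidizes fatty aldehydes, had 2, 10 and 6 counts against 0, 0 and 4. Aldh5a1, of GABA breakdown, had 4, 6 and 2 against 0, 2 and 0. Aldh1a1, Aldh1b1 and Aldh8a1 were among the 7 at 0.

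Glutathione S-transferases were led by Gsta4 (chr9:78191966-78209349), an alpha-class enzyme that conjugates 4-hydroxynonenal, a product of lipid peroxidation. Per kilobase of its longest transcript it stood at 275 CPM, the highest level of any member and rank 285 among 24366 genes with a length. Gstp1 followed at 103 CPM per kilobase. Gstm5, Aldh9a1 and Aldh1a2 lay close together at 57.4, 56.8 and 56.4, Gstt2 at 40.5 and Aldh7a1 at 27.0, beside a median of 29.7 over genes past the filter. The next member, Gsto2, stood at 13.2 CPM per kilobase.

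Gsta4 varied little between libraries. It had 275, 289 and 275 CPM with water and 269.6, 234 and 269 CPM with phthalate. By library total the groups did not overlap, as for 10% of genes past the filter, but the nearest values were 269.6 and 275 CPM, and after TMM scaling the groups overlapped. The ratio was -0.11 (-0.38 to 0.17), and it changed sign to 0.0076 on spike-in scaling. The alpha-class relatives Gsta1 and Gsta2 on the same chromosome had 1 and 8 counts, and Gsta3 had 0. No window of Gsta4 is shared with another gene, whereas 73.7% of those of Gsta1 are.

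Gstt2 (chr10:75831842-75837419), a theta-class enzyme, had the highest ratio of the 7. It had 108, 39.9 and 42.3 CPM with water and 111, 173 and 76.4 CPM with phthalate. Water oocyte 1 lay above phthalate oocyte 3 and just under phthalate oocyte 1, so the groups overlapped. The ratio was 0.99 (0.49 to 1.5, and 0.30 to 1.76 on read pairs), just under 2-fold. Single libraries set its size, since it was 1.57 without water oocyte 1 and 0.63 without phthalate oocyte 2. For genes of like count the 5th and 95th percentiles were -0.69 and 0.62. Its neighbours Gstt1, Gstt3 and Gstt4 had 1, 0 and 5 counts.

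Gstp1 (chr19:4035411-4037912), the pi-class enzyme, had 40.8, 93.0 and 81.0 CPM with water and 63.4, 129 and 94.6 CPM with phthalate. The groups overlapped, and the ratio was 0.44 (-0.057 to 0.94). With 1 oocyte left out the ratio ranged from 0.16 to 0.70. Of the windows of Gstp1, 41.8% are shared with the adjacent copy Gstp2 or a pseudogene. Gstp2 had 3, 4 and 6 counts with water and 0, 2 and 1 with phthalate, the opposite direction. Because reads of the pair can be exchanged, their sum is the safer value, with 75 and 83 counts and a ratio of 0.22 (-0.25 to 0.69).

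Gstm5 (chr3:107895854-107898685), a mu-class enzyme, had 40.8, 86.4 and 59.9 CPM with water and 83.2, 37.3 and 18.2 CPM with phthalate. The ratio was -0.47 (-1.12 to 0.16), and without phthalate oocyte 1 it was -1.13, past 2-fold. It was -0.14 without water oocyte 2 and also -0.14 without phthalate oocyte 3, so single libraries set its size. The adjacent gene 4933431E20Rik overlaps it and had 4 and 2 counts. In the mu-class cluster on the same chromosome, Gstm6 had 23 counts and Gstm7 had 2, while Gstm1, Gstm2, Gstm3 and Gstm4 were at 0.

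**Figure D4:**
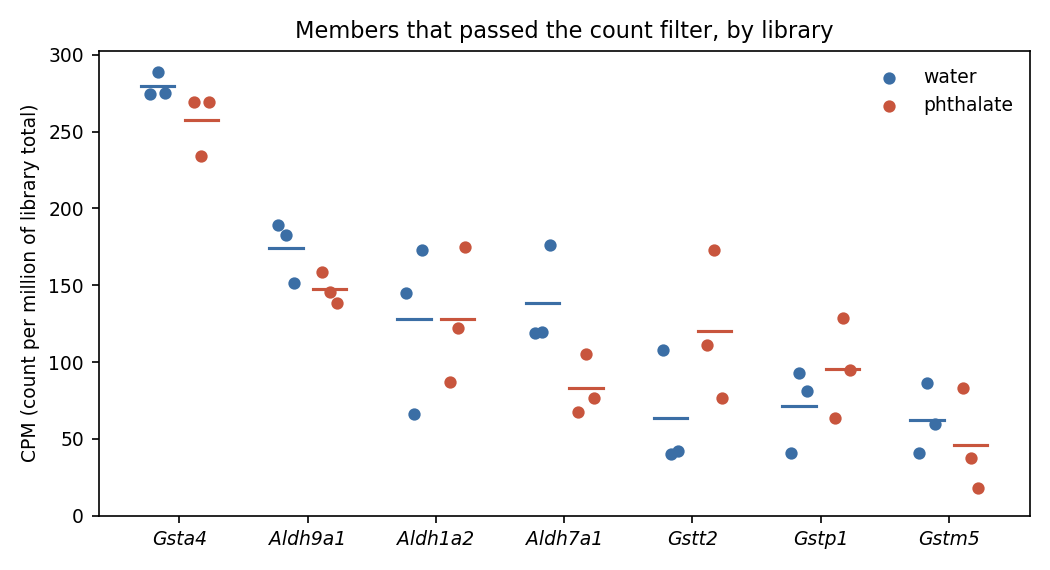
CPM (y axis) in each library for the 7 members past the count filter, water in blue and phthalate in red, with a bar at the mean. CPM is not per length, so libraries can be compared within a gene but not genes with each other. Aldh7a1 and, by a narrow margin, Gsta4 show no overlap of the groups, and Gstt2 ranges from 39.9 to 173 CPM.

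**Figure D5:**
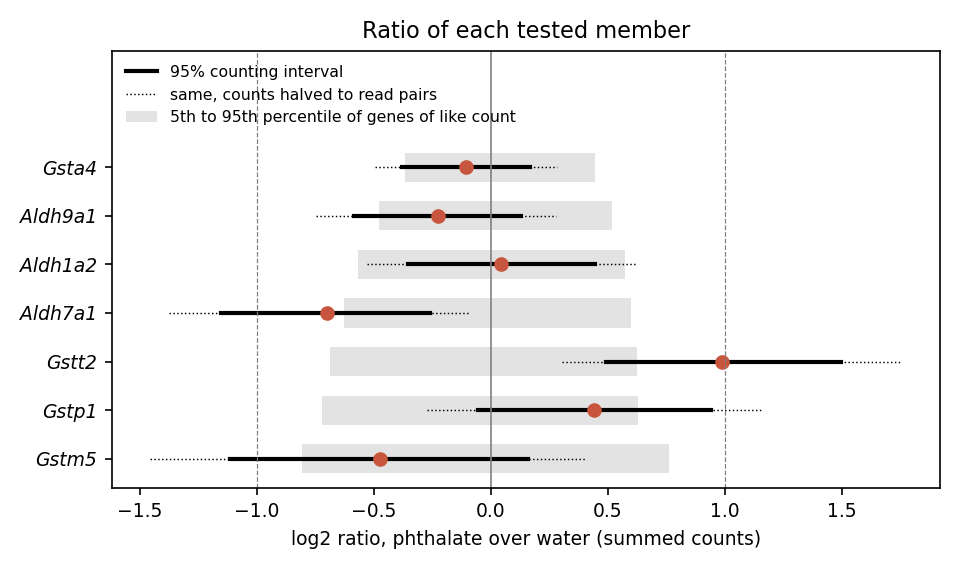
Log2 ratio of phthalate over water (x axis) for the same members, with its 95% counting interval (solid), the interval on counts halved to read pairs (dotted) and the 5th to 95th percentile of genes of like count (grey). Dashed lines mark 2-fold. Gstt2 at 0.99 and Aldh7a1 at -0.70 lie outside their grey ranges, and the other 5 lie inside.

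Conjugation by other routes was sparse. Among sulfotransferases, Sult5a1 (chr8:123142843-123158914) had 6, 18 and 2 counts with water and 4, 4 and 8 with phthalate, a ratio of -0.63 (-1.62 to 0.32). Sult4a1, best known from brain, had 19 counts in each group. The 3 counted Sult2 genes together had 12 and 17 counts. Among glucuronosyltransferases, Ugt2b38 (chr5:87409939-87424203) had 4 counts in water oocyte 3, 2 in phthalate oocyte 3 and 0 elsewhere, and Ugt2a3 had 2 counts in 1 library.

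The 53 counted members below the filter had 1 to 46 counts in all, with a median of 6. Of all counted members, 10 had counts in the water group only and 11 in the phthalate group only. None of those 21 had more than 8 counts, so presence in 1 group is not readable at this depth. Among the 20 members below the filter with at least 12 counts, a minimum chosen after the data were seen, 6 were past 2-fold (30%), against 26.5% of the 3755 genes of that kind. They were Aldh18a1 and Cyp2a12 on the higher side and Cyp4a14, Aldh3a2, Aldh5a1 and Gstp2 on the lower. In 4 of the 20 the groups did not overlap (Aldh18a1, Cyp4a14, Aldh5a1 and Gstp2), against 10.6%. In Aldh18a1 and Aldh5a1 the nearest counts of the groups were tied, at 6 and at 2, and were separated by the scaling to library size alone.

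Other genes of the pathway were taken from a list of 80 in 4 roles, of which 61 had a count and 19 passed the filter. Of the 19, 8 had a ratio above 0 and 11 below, with a median of -0.098, and 0 were past 2-fold. Over all 4644 genes past the filter, 2377 lay above 0 and 2267 below. Their median was 0.0089, and 2.78% were past 2-fold. Sensors and regulators had 16 of 21 counted and 6 past the filter, 2 above 0 and 4 below, with a median of -0.21. They were led by Hsp90ab1, a chaperone of AHR and other clients, with 860 and 996 counts and a ratio of 0.28 (0.15 to 0.42, and 0.095 to 0.47 on read pairs). Its libraries overlapped, at 976, 1179.7 and 853 CPM with water and 1308, 1271 and 1058.5 CPM with phthalate. The lowest ratio of the 6, -0.72 (-1.22 to -0.23, and -1.43 to -0.0037 on read pairs), was that of the co-chaperone Ptges3, named after its values were seen. It had 81.6, 146 and 109 CPM with water and 107, 47.5 and 54.6 CPM with phthalate, and the groups overlapped. The receptors AHR, CAR, PXR and PPARA themselves did not pass. Ahr had 4, 4 and 4 counts with water and 0, 2 and 0 with phthalate, a ratio of -2.51 (-5.71 to -0.35, and -8.04 to 0.53 on read pairs). Nr1i2, which encodes PXR, had 2, 2 and 3 against 7, 6 and 4, a ratio of 1.35 (0.0090 to 2.86, and -0.83 to 3.25 on read pairs). The groups did not overlap in either, as in 10.6% of genes below the filter with at least 12 counts. Ppara had 0, 0 and 4 against 0, 4 and 2, and Nr1i3, which encodes CAR, had 2 counts in phthalate oocyte 3 and 0 elsewhere. These 4 receptors were named after their values were seen.

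Electron donors and cofactor suppliers had 14 of 15 counted and 7 past the filter, 5 above 0 and 2 below. They were led by G6pdx, the NADPH source of the pentose phosphate pathway, with 545 and 528 counts and a ratio of 0.026 (-0.15 to 0.20). The lowest ratio of the 19 genes was in this role, that of Alas1, which starts heme synthesis and was named after its values were seen. It had 74.2, 33.2 and 102 CPM with water and 31.7, 54.2 and 29.1 CPM with phthalate, which overlapped, and a ratio of -0.81 (-1.48 to -0.17, and -1.81 to 0.087 on read pairs). Gsr, which reduces oxidized glutathione, had 0 counts in all libraries, and Ugdh, which makes the cofactor of glucuronidation, had 4 counts in 1 library. Papss1, below the filter and named after its values were seen, had 10, 10 and 8 counts with water and 6, 3 and 4 with phthalate. The groups did not overlap, as in 10.6% of genes below the filter with at least 12 counts. The ratio was -1.03 (-2.11 to -0.038, and -2.82 to 0.32 on read pairs), and 26.5% of such genes were past 2-fold. Other phase I and II enzymes had 19 of 28 counted and 4 past the filter, 1 above 0 and 3 below, led by Akr1a1, an aldehyde reductase, with 438 and 357 counts and a ratio of -0.22 (-0.43 to -0.018, and -0.52 to 0.065 on read pairs). Its libraries overlapped, at 460.1, 552 and 522 CPM with water and 349, 471 and 473 CPM with phthalate. Transporters had 12 of 16 counted and 2 past the filter, both below 0, of which Slco3a1 had more counts (127 and 94), with a ratio of -0.36 (-0.76 to 0.034).

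RNA of the surrounding follicle cells was followed with 20 cumulus and granulosa markers, of which 12 had a count. Their summed counts were 126 to 132 per library with water and 111 to 127 with phthalate. Serpine2 made up 312 and 305 of the 387 and 361 counts in the groups and Nr5a2 64 and 39. The other 10 counted markers had at most 6 counts each. Cyp19a1 had 5 with water and 1 with phthalate, Has2, Kitl and Lhcgr had 2 each with water only, and Cyp11a1 (6), Fshr (3), Inha, Inhba and Inhbb (2 each) and Fst (1) were counted with phthalate only. Water libraries held 4 counts of theca and stroma markers and 2 of blood and immune markers, and phthalate libraries held 0 of both. The granulosa markers Amh, Foxl2, Star, Hsd3b1, Ptgs2, Ptx3, Tnfaip6 and Nr5a1 were at 0. The part of such RNA in the members' values was not tested.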

How the data were processed

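The deposited table holds raw read counts, 1 row for each of 25239 gene symbols plus 92 rows of ERCC spike-in RNA. The submitters' processing notes name cutadapt, Trimmomatic, HISAT2, DESeq2 and the build mm10. The counting tool, annotation, strand setting and handling of molecular identifiers are not given in the sources used here. ERCC rows stayed out of totals. The count filter (filterByExpr, minimum count 10, minimum total 15) and TMM factors came from edgeR 4.0.16 in R 4.3.3. A group sum of 0 was set to 3 counts, and no ratio was given where both sums were at most 3. Intervals are exact (Clopper-Pearson for ratios and shares). The ratio script was tested on simulated data. Positions and promoters are from RefSeq GRCm38.p6 (185 of 185 members matched by symbol for position, 149 for promoter), and lengths and shared windows from GENCODE M21 (184 matched). Named in full were members with a mean count of at least 20, the leading member of each family and the extreme ratios. Members past the filter were all named. Members, lists and alternatives were chosen with earlier results of these data known. Alternatives covered scaling, filter, prior count, fold and each oocyte left out.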

Additional observations from a re-analysis of the deposited data

How the results depend on the processing

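The number of members past 2-fold was 0 and became 1 on ERCC spike-in scaling, 2 at 1.5-fold and 8 of 37 without a filter, where many have few counts. It ranged from 0 to 2 with 1 oocyte left out and the filter applied anew, as in all such values below. The percent of all genes past 2-fold, 2.78, became 15.1 at 1.5-fold, 18.7 without a filter and 0.611 at a mean count of at least 20, and ranged from 5.09 to 6.39 with 1 oocyte left out. The number of members past the filter whose groups did not overlap was 1 and became 2 on library totals, with or without Rn45s (alternatives chosen after seeing the data). Of 185 members, 60 were detected, 17 in all 6 libraries, and 56 to 58 with 1 oocyte left out.

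Spike-in scaling moved the median ratio of all genes from 0.0089 to 0.12, the median of the members from -0.11 to 0.0076 and that of the pathway list from -0.098 to 0.017. The spike-ins of a library had 292 to 753 counts, which limits that scaling. Without a filter the median of members was 0.045. With 1 oocyte left out the median ranged from -0.14 to 0.042 for members and from -0.16 to 0.019 for the pathway list. The family ratios then ranged from -0.25 to -0.12 for Aldh, 0.074 to 0.18 for Gst, -0.29 to 0.0055 for Cyp, -0.41 to 0.70 for Sult, -2.12 to -0.38 for Ugt and -1.54 to 0.33 for Ces. The cause was not tested. No paired analysis was possible because no label ties an oocyte of one group to an oocyte of the other beyond its number, and no value given comes from a test.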
